A study of Homo sapiens with 8 samples.

Results

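RNA carried on polysomes was compared between 2 libraries titled U and 2 titled CT, which are 4 of the 8 libraries in the series. The other 4 are input RNA from the same lysates. All came from OCI-AML3, an established human acute myeloid leukaemia line that carries mutant NPM1 and has monocytic features. CT1 and CT2 have the genotype label WT and U1 and U2 have the label FBL knockdown. The protocol names infection with a control short hairpin for one arm and a short hairpin against FBL for the other, so the WT-labelled cells carried a hairpin as well. Before lysis, the cells of both arms were held in cycloheximide at 100 µg/mL for 15 min, which stalls elongating ribosomes on their mRNAs. Lysates were spun through gradients of 10% to 50% sucrose and collected as 14 fractions. The sources used here do not give which fractions were joined as polysome RNA, the hairpin's sequence or the time after infection. The question was which mRNAs gained or lost polysome RNA between the labels once libraries of the same title number (1 or 2) were compared with each other.

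FBL encodes fibrillarin, the enzyme of box C/D snoRNP particles, which adds 2'-O-methyl groups to ribosomal RNA at positions chosen by guide RNAs. It resides in the dense fibrillar component of the nucleolus, where pre-ribosomal RNA is cut, modified and assembled into subunits. An mRNA that sits in the heavy part of a sucrose gradient carries several ribosomes at once, so its polysome level depends both on how much of the mRNA the cell holds and on how densely it is loaded. In bulk libraries such as these, fewer cells carrying an mRNA and less of it per cell cannot be told apart.

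The targeted gene was read first, because it checks the labels. FBL stood at 444 and 146 CPM in CT1 and CT2 and 459 and 158 CPM in U1 and U2, where CPM is the usual depth-scaled count, here after TMM scaling (edgeR's trimmed mean of M values). Both libraries numbered 1 were near 3 times both libraries numbered 2, and within a number U was not lower than CT (log2 fold change 0.08, SE 0.11, adjusted p = 0.846). The term for the number in the same fit gave a log2 difference of -1.57 for number 2 minus number 1 (adjusted p = 9.09e-07), and the input libraries had the same order (272, 96.8, 277 and 92.3 CPM in CT1, CT2, U1 and U2). The FBL counts therefore do not bear out the label of the U libraries, and every direction below is drawn between titles: U means the library labelled FBL knockdown, CT the library labelled WT.

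The 4 polysome libraries held 22171255 to 40813826 gene counts, U2 being the shallowest. Myeloid genes were present in each library, with the transcription factor SPI1 at 895 to 1005 CPM (in this paragraph without TMM scaling) and CEBPA at 358 to 481 CPM, while MPO (0 to 3.3 CPM) and ITGAM (0.96 to 3.9 CPM) were near 0. Of 17 erythroid and megakaryocyte markers 8 had no read, and the list summed to 22.3 and 26.9 CPM in CT and 29.2 and 37.0 CPM in U. Of 23 lymphoid markers 12 had no read, and the sums were 71.4 and 68.1 CPM in CT and 112 and 123 CPM in U, most of it CD4, which monocytes express too. Of 12 epithelial and fibroblast markers 4 had no read and the sums were 3.2 to 4.9 CPM. A pair of libraries stood apart on single genes: 45 genes at a mean of 10 CPM or more were over 2 times higher in CT2 than in every other polysome library, and 25 were so in U2, against 2 in CT1 and 0 in U1. The mitochondrially encoded share of counts was 0.275% in CT1, 0.344% in CT2, 0.200% in U1 and 0.740% in U2.

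Between the labels, 507 of 14444 genes tested passed an adjusted p of 0.05 (3.51%), 254 higher in U (1.76%) and 253 lower (1.75%). The genes that rose included mRNAs of secreted and surface proteins of monocytes, interferon-stimulated genes, S100 proteins and small subunits of the proteasome and the respiratory chain. Among those that fell were nucleolar and pre-ribosomal RNA factors, p53 target genes, the telomerase subunit TERT, the nuclear RNAs NEAT1 and MALAT1, and the microRNA host MIR142HG. The proteasome subunits, pre-ribosomal RNA processing factors, p53 targets and TERT kept no call under 2 alternatives given below. These were a correction for GC content and exon length, and RLE size factors in place of TMM. All 507 had the same sign within number 1 and within number 2, and in 244 of the higher and 246 of the lower genes the 2 U values did not overlap the 2 CT values. Over all genes tested, the values of the labels did not overlap in 42.3% and the within-number ratios had the same sign in 59.4%; the calls were made on the same contrast, so neither count is support for them. Changes were mostly small: the median log2 fold change was 0.65 among the higher and -0.58 among the lower genes, against -0.01 over all genes tested, and 44 rose and 27 fell by over 2-fold.

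Of the 7526 genes at a mean of 10 CPM or more, 242 were called higher and 249 lower, a share to set beside the list counts below. Across these genes, the log2 ratio of U1 to CT1 and that of U2 to CT2 had the same sign in 66.8%. Their Pearson correlation was 0.40 and Spearman's rho 0.43 across genes, which are not independent replicates. The title number itself separated 81 genes (0.561%) in the same fit. The test had 1 residual degree of freedom per gene and took most of its spread from the trend over genes, and without the number as a block the same 4 libraries gave 0 calls in edgeR's test, with 1582 genes at an unadjusted p under 0.05 against 2122 with the block. RLE size factors in place of TMM gave 67 higher and 52 lower genes, and a correction of each library for GC content and exon length gave 66 higher and 35 lower, which put 65.3% of the calls on the higher side against 50.1% without it. The labels do not say that the 2 libraries of a label came from separate cultures or infections, so the p-values measure only the spread between these libraries.

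**Figure D1:**
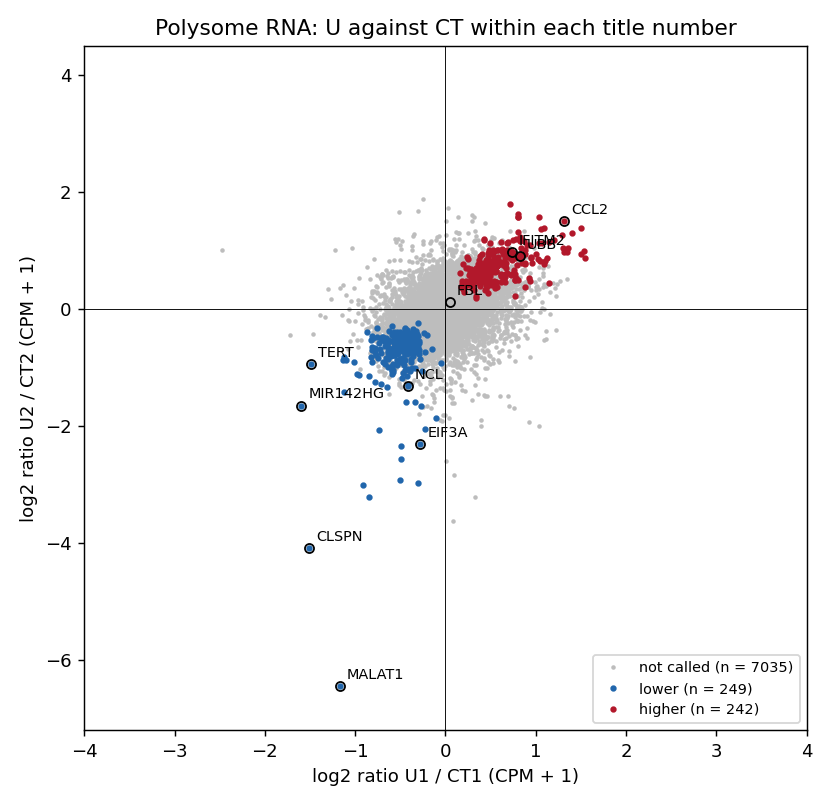
Each point is a gene with a mean of at least 10 CPM over the 4 polysome libraries; the x axis is the log2 ratio of U1 to CT1 and the y axis that of U2 to CT2, both of CPM + 1. Called genes fill the upper right (higher in U) and lower left (lower in U) of the plot, with CCL2 at 1.31 and 1.51 and FBL near 0 on both axes.

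CCL2, IFITM2 and UBB were measured closely alike within each label. CCL2 encodes the chemokine that draws monocytes to sites of inflammation (ENSG00000108691, chr17:34255218-34257203, plus strand, GRCh38). It had 29.02 and 28.7 CPM in CT1 and CT2 and 73.6 and 83.6 CPM in U1 and U2, so both U libraries lay far above both CT libraries (log2 fold change 1.44, SE 0.18, adjusted p = 0.000522). Its ratio was similar in both numbers, with log2 1.31 for U1 over CT1 and 1.51 for U2 over CT2.

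IFITM2 encodes a membrane protein that blocks the entry of enveloped viruses into the cytosol (ENSG00000185201, chr11:307631-315272, plus strand). Its level was 414 and 378 CPM in CT1 and CT2 and 689 and 742 CPM in U1 and U2, with no overlap between labels (log2 fold change 0.85, SE 0.10, adjusted p = 0.000349). Its exons overlap those of IFITM1, and its sequence is close to that of IFITM3, so some reads may have been left uncounted or assigned to another of these genes. UBB encodes a polyubiquitin precursor that supplies free ubiquitin (ENSG00000170315, chr17:16380798-16382745, plus strand), and an unnamed gene model overlaps its exons. It rose from 218 and 222 in CT1 and CT2 to 387 and 416 CPM in U1 and U2 (log2 fold change 0.87, SE 0.11, adjusted p = 0.000522), and its labels did not overlap.

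**Figure D2:**
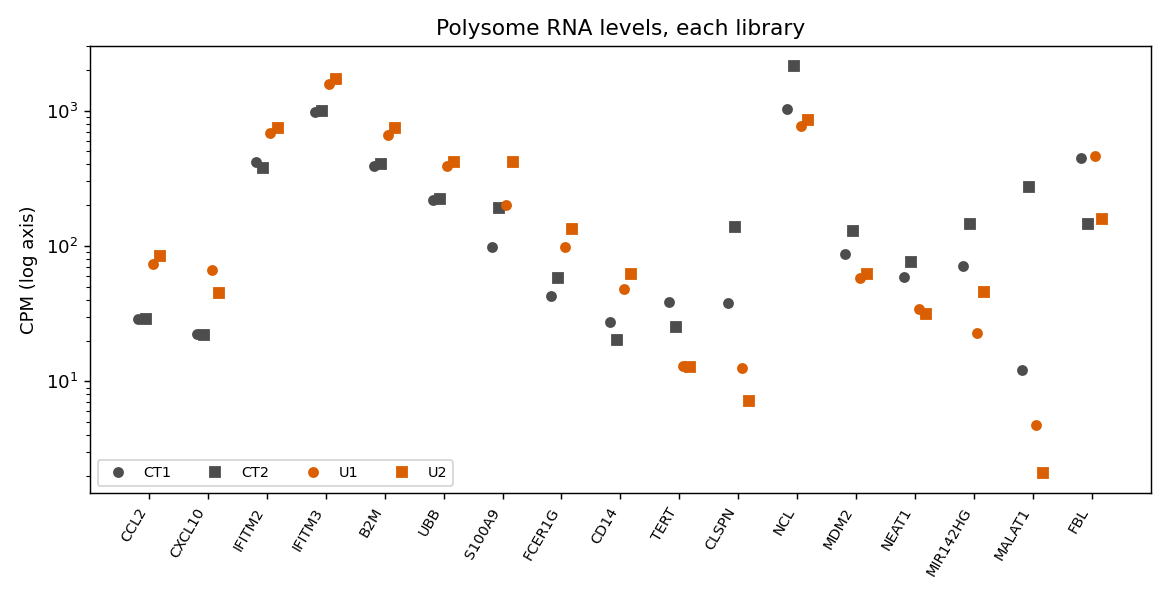
CPM on a log axis in each polysome library for 17 genes; grey symbols are CT, orange symbols U, circles number 1 and squares number 2. CCL2, IFITM2 and UBB show both U libraries above both CT libraries, MALAT1 and CLSPN are spread by a high CT2, and FBL splits by number and not by label.

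Among the secreted signals, 3 of 22 tested chemokines and cytokines (of 23 listed) rose and none fell. The tested members had a median of 0.61 on the log2 scale, against -0.01 over all genes. Besides CCL2 these were CXCL10, the interferon-induced ligand of CXCR3, which went from 22.2 and 21.95 in CT1 and CT2 to 66.2 and 44.8 CPM in U1 and U2 (log2 fold change 1.30, SE 0.21, adjusted p = 0.00295), and the inhibitory factor MIF (0.85, adjusted p = 0.00276), whose exons overlap the antisense gene MIF-AS1. With the GC and length correction 3 members of the list were called, and with RLE size factors 3. Secreted proteases and their inhibitors had 4 of 27 higher and none lower (median 0.41). The gelatinase MMP9 rose from 16.3 and 16.2 in CT1 and CT2 to 35.9 and 43.8 CPM in U1 and U2 (log2 fold change 1.29, SE 0.22, adjusted p = 0.00549). MMP2 (0.63, adjusted p = 0.0109), the metalloproteinase inhibitor TIMP1 (0.72, adjusted p = 0.00549) and the cathepsin inhibitor cystatin C (CST3; 0.44, adjusted p = 0.00798) rose with it. Under the GC and length correction 2 of this list were called, and with RLE size factors 3.

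The interferon-stimulated genes had 11 of 48 tested members higher (of 49 listed) and none lower, with a median of 0.29; with the GC and length correction 4 were called and with RLE size factors 3. IFI27, a small membrane protein, rose from 635 and 486 in CT1 and CT2 to 1075 and 771 CPM in U1 and U2 (log2 fold change 0.71, SE 0.09, adjusted p = 0.000529). IFI16, a sensor of DNA, rose from 111 and 156 in CT1 and CT2 to 186 and 293 CPM in U1 and U2 (0.83, adjusted p = 0.00165). ISG15, the ubiquitin-like modifier, rose by a small step, from 11478 and 11300.0 in CT1 and CT2 to 13213 and 13826 CPM in U1 and U2 (0.25, adjusted p = 0.0071). The other members that rose were IFI44 (0.79), ISG20 (0.69), OAS1 (0.65), USP18 (0.63), IFIT1 (0.62), OAS3 (0.61), OASL (0.46) and IFI6 (0.37) on the log2 scale. MX1, an antiviral GTPase, was not called (0.24, adjusted p = 0.127).

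Of the IFITM family, 3 of 5 listed genes passed the filter on low counts and 2 were called. IFITM3 had 982 and 997 CPM in CT1 and CT2 and 1569 and 1721 CPM in U1 and U2 (log2 fold change 0.73, SE 0.08, adjusted p = 0.000181). IFITM1 had 9.03 and 4.42 CPM in CT1 and CT2 and 18.6 and 6.07 CPM in U1 and U2; its value was lower in both libraries numbered 2 and it was not called (0.76, adjusted p = 0.326). Antigen presentation by MHC class I had 5 of 19 tested members higher (of 20 listed) and none lower (median 0.20). B2M, the invariant light chain, rose from 387 and 405 in CT1 and CT2 to 659 and 748 CPM in U1 and U2 (log2 fold change 0.83, SE 0.10, adjusted p = 0.000349). The heavy chains HLA-C (0.61) and HLA-B (0.60) rose too on the log2 scale; reads of these similar genes may have been assigned to one another. PSMB9, a subunit of the immunoproteasome, was called as well (0.47, adjusted p = 0.00806). Of this list 4 were called with the GC and length correction and 3 with RLE size factors. CD74, the invariant chain of MHC class II, rose too (0.64, adjusted p = 0.0249), alone among 3 tested of 12 listed, and under neither alternative.

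The interferon-stimulated response element is a promoter sequence through which many genes respond to interferon. RefSeq promoters (GRCh38.p14), taken as the 250 bases before each gene's start, were searched on both strands for its core, which is GAAA, any 2 bases, and GAAA again. It was in 18 of 199 promoters of genes that rose (9.05%), in 3 of 214 of genes that fell (1.40%) and in 2.465% of the 10549 promoters of genes tested, against 3.07% of all 27305 promoters. Among interferon-stimulated genes that rose and had a promoter entry, 7 of 9 held it, a list chosen for that pathway. The promoter of UBB held no match to this core, and CCL2 and IFITM2 had no promoter entry. Of the other motifs searched, TATAAA was in 15.6% of promoters of genes that rose, 2.34% of those that fell and 5.33% of those tested, and TGANTCA (AP-1) in 8.04%, 1.87% and 3.75%. CACGTG (E-box) was in 5.53%, 11.7% and 8.94% in the same order, an NF-kB motif (GGG, any 5 bases, CC) in 63.3%, 74.8% and 69.4%, and CCAAT in 37.2%, 36.45% and 35.1%. A match is a description of the letters and not a measured binding site, and matches to different motifs can overlap.

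The promoters of 4 genes that rose are shown because they hold the response element core at different distances from the start: IFITM3 (chr11:320861-321110, minus strand), CXCL10 (chr4:76023498-76023747, minus strand), B2M (chr15:44711267-44711516, plus strand) and ISG15 (chr1:1013247-1013496, plus strand). Each reads 5′ to 3′ on the gene's strand and ends 1 base before the start, and capitals mark matches to the core. In B2M and ISG15 a pair of matches overlap, so that their capitals form 1 run.
IFITM3: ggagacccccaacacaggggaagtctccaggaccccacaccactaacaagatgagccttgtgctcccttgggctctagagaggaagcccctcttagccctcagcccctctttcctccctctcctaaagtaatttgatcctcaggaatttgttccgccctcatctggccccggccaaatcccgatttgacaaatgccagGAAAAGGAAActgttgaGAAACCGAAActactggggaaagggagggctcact
CXCL10: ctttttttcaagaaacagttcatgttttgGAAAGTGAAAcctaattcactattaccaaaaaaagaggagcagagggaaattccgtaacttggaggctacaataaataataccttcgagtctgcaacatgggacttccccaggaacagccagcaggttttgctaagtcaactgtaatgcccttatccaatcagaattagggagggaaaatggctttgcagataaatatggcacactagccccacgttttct
B2M: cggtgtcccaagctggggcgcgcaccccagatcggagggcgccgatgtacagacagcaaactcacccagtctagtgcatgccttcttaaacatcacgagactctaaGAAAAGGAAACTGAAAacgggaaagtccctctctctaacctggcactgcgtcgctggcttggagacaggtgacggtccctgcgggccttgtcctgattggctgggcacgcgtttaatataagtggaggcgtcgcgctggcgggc
ISG15: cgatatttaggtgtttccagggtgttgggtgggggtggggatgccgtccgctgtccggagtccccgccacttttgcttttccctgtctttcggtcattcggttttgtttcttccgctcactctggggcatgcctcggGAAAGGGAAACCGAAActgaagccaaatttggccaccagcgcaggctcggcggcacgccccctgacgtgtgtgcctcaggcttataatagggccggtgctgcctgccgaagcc

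The matches began 52 and 35 bases before the start in IFITM3, 221 bases in CXCL10, 144 and 138 bases in B2M, and 113 and 107 bases in ISG15. All 4 genes were higher in both U libraries than in both CT libraries, by amounts that ranged from the small step of ISG15 to the rise of CXCL10, the largest of the 4.

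Monocyte surface receptors had 7 of 38 tested members higher (of 43 listed) and none lower (median 0.46); with the GC and length correction 2 were called and with RLE size factors 2. FCER1G, the gamma chain through which several Fc receptors signal, rose from 42.5 and 58.1 in CT1 and CT2 to 98.7 and 132 CPM in U1 and U2 (log2 fold change 1.20, SE 0.15, adjusted p = 0.000529). CD14, the co-receptor for lipopolysaccharide, rose from 27.2 and 20.2 in CT1 and CT2 to 48.3 and 62.2 CPM in U1 and U2 (log2 fold change 1.22, SE 0.22, adjusted p = 0.00617). The scavenger receptor MARCO (0.97, adjusted p = 0.0139), the chemokine receptor CCR1 (0.82, adjusted p = 0.0379) and the adaptor TYROBP (0.56, adjusted p = 0.0238) rose as well. FCGR1A (0.76) and FCGR2B (2.06) were called, but they have near-identical copies and their counts are uncertain.

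Granule and S100 proteins had the largest share of calls among the myeloid lists, 12 of 22 tested (of 31 listed) and none lower (median 0.51), against 8 called under either of those alternatives. S100A9, one chain of calprotectin, had 97.6 and 189.7 CPM in CT1 and CT2 and 201 and 415 CPM in U1 and U2 (log2 fold change 1.09, SE 0.12, adjusted p = 0.000181). S100A8, its partner, had 235 and 431 CPM in CT1 and CT2 and 352 and 799 CPM in U1 and U2 (0.74, adjusted p = 0.00143). Both were higher in number 2 than in number 1 of each label; the labels of S100A9 did not overlap, by a narrow margin between CT2 and U1, and those of S100A8 did. S100A11 (0.80), S100A10 (0.83), the phospholipid-binding annexins ANXA1 (1.12) and ANXA2 (0.54), AIF1 (0.79), the ribonuclease RNASE2 (0.84), the proteoglycan SRGN (0.49), the protease PRTN3 (0.46), LGALS1 (0.37) and S100A12 (2.61) completed the list on the log2 scale. S100A12 was low, at 1.08 and 1.55 CPM in CT and 4.69 and 13.2 CPM in U.

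Myeloid transcription factors were called in both directions: 2 of 29 tested (of 30 listed) rose, 1 fell and the median was -0.06. Such small counts are not far from the share of genes at 10 CPM or more, where 242 of 7526 were called higher and 249 lower. ID2, an inhibitor of basic helix-loop-helix factors, rose from 14.1 and 10.9 in CT1 and CT2 to 26.7 and 23.04 CPM in U1 and U2 (1.00, adjusted p = 0.0424). IRF8, which directs monocyte commitment, fell from 425 and 468 in CT1 and CT2 to 323 and 288 CPM in U1 and U2 (log2 fold change -0.55, SE 0.11, adjusted p = 0.0103). Neither alternative called a gene of this list. None of 15 tested HOX and MEIS1 program genes (of 17 listed) was called (median 0.03).

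By the size of the change, the 12 largest increases among called coding genes at 10 CPM or more in the higher label were FCGR2B, TGM2, NOL3, IL32, SLX1B, CCL2, CD163L1, AK6, RGS16, RGS2, TUBB4A and CXCL10. IL32, a cytokine of human myeloid and lymphoid cells, rose from 13.1 and 25.1 in CT1 and CT2 to 38.9 and 66.97 CPM in U1 and U2 (log2 fold change 1.49, SE 0.20, adjusted p = 0.00114). TGM2, a transglutaminase, rose from 4.44 and 2.75 in CT1 and CT2 to 10.5 and 13.6 CPM in U1 and U2 (1.77, adjusted p = 0.0248). RGS16 (1.38) and RGS2 (1.32), which shut off G protein signalling, both rose. SLX1B and AK6 are uncertain, since SLX1B has a near-identical copy and overlaps BOLA2, and AK6 overlaps TAF9; SLX1B had 33.6 and 1.10 CPM in CT1 and CT2 and 55.6 and 6.30 CPM in U1 and U2, so its number differed far more than its label. TMSB4X, an actin-binding peptide singled out after its values were seen, had the smallest p of all genes and rose from 2043 and 2529 in CT1 and CT2 to 3511 and 5821 CPM in U1 and U2 (log2 fold change 0.99, SE 0.08, adjusted p = 1.09e-05).

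Of 38 proteasome subunits 7 rose and none fell, 32 had a positive log2 fold change and the median was 0.31, but none was called with the GC and length correction or with RLE size factors. PSME1, a chain of the interferon-induced activator cap, rose from 264 and 329 in CT1 and CT2 to 389 and 452 CPM in U1 and U2 (0.51, adjusted p = 0.0125), and its exons overlap those of EMC9. The core subunit PSMB3 rose from 534 and 496 in CT1 and CT2 to 665 and 773 CPM in U1 and U2 (0.48, adjusted p = 0.0148). Core subunits PSMB2, PSMA3 and PSMB4 and the base ATPases PSMC2 and PSMC4 were the others. Ubiquitin and heat shock genes had 3 of 34 tested members higher and 1 lower (of 36 listed, median 0.06): after UBB, the mitochondrial co-chaperonin HSPE1 (0.65, adjusted p = 0.0103) and DNAJA1 (0.47, adjusted p = 0.0248) rose, and HSF1, the heat shock transcription factor, fell from 257 and 261 in CT1 and CT2 to 191 and 172 CPM in U1 and U2 (-0.52, adjusted p = 0.0225). With the GC and length correction, as with RLE size factors, 1 gene of this list was called, higher. The inducible chaperone HSPA1A had 219 and 155 CPM in CT1 and CT2 and 215 and 146 CPM in U1 and U2 and was not called (-0.06, adjusted p = 0.931). Of 8 tested CCT chaperonin subunits, CCT5 was called (0.37, adjusted p = 0.0423), and none under either alternative.

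Nuclear-encoded respiratory chain mRNAs were called only higher. Complex I had 7 of 37 members higher and none lower (median 0.21), and complexes II to V had 12 of 42 higher and none lower (median 0.29, 38 positive). COX7B, a small subunit of cytochrome c oxidase, rose from 71.9 and 98.99 in CT1 and CT2 to 134 and 192 CPM in U1 and U2 (log2 fold change 0.92, SE 0.13, adjusted p = 0.00143). COX5A (1.01, adjusted p = 0.00617) and COX7A2 (0.98, adjusted p = 0.0065) rose as well, and in complex I NDUFB4 rose from 72.98 and 88.3 in CT1 and CT2 to 127 and 150.0 CPM in U1 and U2 (0.78, adjusted p = 0.00585). With the GC and length correction 1 subunit of these complexes was called (in II to V), and with RLE size factors 1 of complex I and 4 of the rest. None of the 13 mitochondrially encoded mRNAs was called: their median log2 ratio was -0.52 for U1 over CT1 and 1.15 for U2 over CT2, and their summed level was 2170.5 to 2714 CPM in CT and 1550.3 to 6502 CPM in U.

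In glycolysis 7 of 27 members rose and 1 fell (median 0.28). ENO2, an enolase, rose from 11.3 and 16.1 in CT1 and CT2 to 33.7 and 32.01 CPM in U1 and U2 (1.29, adjusted p = 0.00905). ALDOC (0.72), PFKM (0.99), HK1 (0.52), PGK1 (0.47), LDHA (0.44) and GPI (0.41) rose on the log2 scale, and SLC16A3, the lactate exporter, fell from 383 and 399 in CT1 and CT2 to 271 and 256 CPM in U1 and U2 (log2 fold change -0.57, SE 0.11, adjusted p = 0.00792). The GC and length correction called 2 higher and none lower, and with RLE size factors none higher and 1 lower. Sterol and fatty acid synthesis had 2 of 28 tested members lower (of 30 listed) and none higher (median -0.16), which were FASN, the fatty acid synthase (-0.47, adjusted p = 0.0164), and MVD of the mevalonate pathway (-0.52, adjusted p = 0.0285); neither alternative called a gene of this list.

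Messenger RNAs of ribosomal proteins went both ways. Of 46 tested large-subunit proteins (of 47 listed) 9 rose and 2 fell (median 0.13), and of 31 small-subunit proteins 5 rose and 1 fell (median 0.20). RPL14 rose from 445 and 459 in CT1 and CT2 to 664 and 816 CPM in U1 and U2 (log2 fold change 0.70, SE 0.10, adjusted p = 0.00129). RPL19 (0.44, adjusted p = 0.00466) and RPL27 (0.51, adjusted p = 0.00585) of the large subunit and RPS15A (0.60, adjusted p = 0.0068) of the small subunit rose. The stalk protein RPLP2 (-0.27, adjusted p = 0.0303), RPL36 (-0.32, adjusted p = 0.0362) and RPS2 (-0.32, adjusted p = 0.0187) fell. Ribosomal protein genes have many processed pseudogenes, to which their reads can also align. With the GC and length correction 2 large-subunit genes were called higher, and 1 small-subunit gene was called in each direction; with RLE size factors 3 large-subunit genes and 1 small-subunit gene were called, all higher. Mitochondrial ribosomal proteins had 4 of 78 higher and 2 lower (median 0.14), near the share of genes at 10 CPM or more (242 of 7526 higher, 249 lower). Among them MRPS34 fell from 636 and 602 in CT1 and CT2 to 467 and 373 CPM in U1 and U2 (-0.57, adjusted p = 0.00614). With the GC and length correction 2 of this list were called lower and with RLE size factors 1, and none higher.

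Nucleolar and pre-ribosomal RNA genes were called only lower, in small numbers. Nucleolar scaffold and RNA polymerase I genes had 4 of 22 tested members lower (of 25 listed; median -0.21), large-subunit processing factors 4 of 55 (median -0.12) and small-subunit processing factors 4 of 53 tested (of 54 listed; median -0.10), with none higher. NCL, nucleolin, had 1033 and 2127 CPM in CT1 and CT2 and 774 and 857 CPM in U1 and U2; both U values lay below both CT values, and CT2 was near 2 times CT1 (log2 fold change -0.86, SE 0.14, adjusted p = 0.00294). NCL was not called by DESeq2 (adjusted p = 0.202) or with RLE size factors (0.0504), and its log2 ratio was -0.42 within number 1 and -1.31 within number 2. SURF6 fell from 179.7 and 161 in CT1 and CT2 to 107 and 107 CPM in U1 and U2 (log2 fold change -0.67, SE 0.13, adjusted p = 0.00905), and NOC2L (-0.74, adjusted p = 0.0109) and MYBBP1A (-0.60, adjusted p = 0.0248), a repressor of RNA polymerase I, fell with it. Among the processing factors PES1 of the PeBoW complex fell from 707 and 582 in CT1 and CT2 to 521 and 453 CPM in U1 and U2 (-0.40, adjusted p = 0.0272), the helicase DHX37 from 148 and 127 in CT1 and CT2 to 95.3 and 80.3 CPM in U1 and U2 (-0.65, adjusted p = 0.0148), and RRP12 (-0.46), PPAN (-0.60), WDR18 (-0.38), WDR43 (-0.87), TSR3 (-0.42) and SLX9 (-0.47) were the others. With the GC and length correction 2 scaffold genes and no processing factor were called, and with RLE size factors 1 and none.

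Fibrillarin's own complex did not pass the test. None of 13 box C/D and 2'-O-methylation genes was called (median -0.06): NOP58 had 54.02 and 113 CPM in CT1 and CT2 and 45.5 and 64.7 CPM in U1 and U2 (-0.53, adjusted p = 0.121), NOP56 130.1 and 151 CPM in CT1 and CT2 and 135 and 169 CPM in U1 and U2 (0.11, adjusted p = 0.805) and SNU13 316 and 284 CPM in CT1 and CT2 and 341 and 334 CPM in U1 and U2 (0.17, adjusted p = 0.526). In the box H/ACA and telomerase list, 1 of 8 tested (of 9 listed) was called. This was TERT, the reverse transcriptase of telomerase, which fell from 38.4 and 25.3 in CT1 and CT2 to 13.01 and 12.7 CPM in U1 and U2 (log2 fold change -1.28, SE 0.25, adjusted p = 0.0102); it was not called with the GC and length correction or with RLE size factors. DKC1, the pseudouridine synthase of the same particles, had a log2 fold change of -0.05. NPM1, the nucleolar chaperone mutated in this line, had 865 and 809 CPM in CT1 and CT2 and 885 and 848 CPM in U1 and U2 and was not called (0.05, adjusted p = 0.901). None of 22 tested noncoding snoRNA host genes was called (of 24 listed; median -0.07).

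Of 50 initiation and elongation factors 2 rose and 3 fell (median near 0), not far from the share of genes at 10 CPM or more (242 of 7526 higher, 249 lower). EIF5B, which joins the ribosomal subunits, fell from 281 and 551 in CT1 and CT2 to 179.5 and 218 CPM in U1 and U2 (log2 fold change -0.99, SE 0.14, adjusted p = 0.00125), and its exons overlap those of REV1. EIF3A, the largest subunit of initiation factor 3, had 64.1 and 259.9 CPM in CT1 and CT2 and 52.6 and 51.8 CPM in U1 and U2 (log2 fold change -1.30, SE 0.30, adjusted p = 0.0248); within number 1 the values were close, and the fall rests mainly on CT2. EIF4G2 fell (-0.42, adjusted p = 0.028), and EIF3E (0.43, adjusted p = 0.0348) and EIF4A2 (0.62, adjusted p = 0.0466) rose. Each alternative, the GC and length correction and RLE size factors, called 1 factor, lower, and EIF3A was not called by either or by DESeq2 (adjusted p = 0.416). Of 30 tested mRNAs reported with internal ribosome entry sites (of 37 listed), BCL2 (-0.72, adjusted p = 0.028) and EIF4G2 fell and none rose (median -0.20), and neither alternative called any. No gene was called among 33 tested of the integrated stress response, 23 aminoacyl-tRNA synthetases or 21 tested amino acid transporters. ATF4 stood at 709.5 and 608 CPM in CT1 and CT2 and 657 and 556 CPM in U1 and U2, with a log2 fold change of -0.12.

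Targets of p53 were called only lower: 7 of 34 fell, 30 had a negative log2 fold change, and the median was -0.42. MDM2, the ubiquitin ligase of p53, fell from 87.1 and 129.6 in CT1 and CT2 to 57.9 and 62.1 CPM in U1 and U2 (log2 fold change -0.82, SE 0.16, adjusted p = 0.0101). BBC3, a BH3-only inducer of apoptosis, fell from 64.00 and 155 in CT1 and CT2 to 42.4 and 73.2 CPM in U1 and U2 (-0.84, adjusted p = 0.00905), and its U2 value lay above CT1. AEN (-0.61), ZMAT3 (-1.03), GADD45B (-0.68), DDB2 (-0.58) and PHLDA3 (-0.53) were the others. CDKN1A, the cell cycle inhibitor, had 118 and 289 CPM in CT1 and CT2 and 140.0 and 198 CPM in U1 and U2 and was not called (-0.15, adjusted p = 0.779). The list's median was -0.20 for U1 over CT1 and -0.60 for U2 over CT2. None of the list was called with the GC and length correction or with RLE size factors.

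Replication genes had 2 of 53 members lower and none higher (median 0.05), and mitosis genes 2 of 40 lower and 1 higher (median -0.03). These counts are near the share of all genes at 10 CPM or more, where 242 of 7526 were called higher and 249 lower. E2F1, which drives entry into S phase, fell from 191 and 169 in CT1 and CT2 to 123 and 105 CPM in U1 and U2 (log2 fold change -0.66, SE 0.13, adjusted p = 0.0082). The mitotic genes BIRC5 (-0.55, adjusted p = 0.0121) and INCENP (-0.69, adjusted p = 0.0348), subunits of the chromosomal passenger complex, fell, and PTTG1, securin, rose (0.55, adjusted p = 0.0356). There was 1 replication gene called with the GC and length correction and 2 with RLE size factors, and no mitosis gene under either. None of 32 tested histone genes (of 58 listed) was called.

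The 12 largest decreases by the same rule were CLSPN, ANKRD12, PPIG, DDX46, LYAR, SLC30A5, CCAR1, HIRIP3, EIF3A, TERT, RBM25 and ZBTB42. CLSPN, claspin of the replication checkpoint, had 37.9 and 138 CPM in CT1 and CT2 and 12.6 and 7.17 CPM in U1 and U2 (log2 fold change -2.87, SE 0.41, adjusted p = 0.00143), and DESeq2 did not call it (adjusted p = 0.0674). PPIG, a cyclophilin of nuclear speckles, had 11.3 and 59.5 CPM in CT1 and CT2 and 7.70 and 7.04 CPM in U1 and U2 (-1.81, adjusted p = 0.0269). The helicase DDX46, a splicing factor, had 22.2 and 106 CPM in CT1 and CT2 and 17.8 and 12.7 CPM in U1 and U2 (-1.68, adjusted p = 0.0362). Within number 1, which leaves out CT2, the log2 ratio of U1 to CT1 was -1.51 for CLSPN, -0.50 for PPIG, -0.31 for DDX46 and -0.28 for EIF3A, with no test. In these genes, as in LYAR, CCAR1 and RBM25, CT2 stood over 2 times above every other library. Of the 45 genes that CT2 held so far above the rest, 18 were called, and in 31 of the 253 genes called lower CT2 was over 1.5 times CT1, against 3 with CT1 so far above CT2. Among the higher calls, U2 was over 1.5 times U1 in 30 of 254 and U1 so far above U2 in 3. By contrast TERT, HIRIP3, ZBTB42, SLC30A5 and ANKRD12 were lower in each U library than in each CT library. Their CT1 and CT2 values lay within 2 times of each other. ZBTB42 had 28.9 and 24.6 CPM in CT1 and CT2 and 14.2 and 10.9 CPM in U1 and U2 (-1.10, adjusted p = 0.0249). ANKRD12 had 15.1 and 25.6 CPM in CT1 and CT2 and 7.57 and 2.30 CPM in U1 and U2. Its fall was uneven, with log2 ratios of -0.91 within number 1 and -3.01 within number 2.

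Long noncoding RNAs that stay in the nucleus or host a microRNA had 3 of 12 tested members lower (of 14 listed), none higher, and a median of -0.38. MIR142HG (chr17:58330884-58332508, minus strand) is the host transcript of miR-142, a microRNA of blood cells. It had 71.5 and 146 CPM in CT1 and CT2 and 22.9 and 45.8 CPM in U1 and U2, lower in each U library than in the CT library of its number, with U2 below CT1 (log2 fold change -1.66, SE 0.16, adjusted p = 8.8e-05). NEAT1, the scaffold of paraspeckles, fell from 59.02 and 75.9 in CT1 and CT2 to 34.1 and 31.3 CPM in U1 and U2 (-1.03, adjusted p = 0.0068). MALAT1 had 12.05 and 271 CPM in CT1 and CT2 and 4.80 and 2.12 CPM in U1 and U2, so the size of its fall rests on CT2 (log2 fold change -3.94, SE 0.83, adjusted p = 0.0148); within number 1 its log2 ratio was -1.17. MALAT1 was not called by DESeq2 (adjusted p = 0.156), and 2 of the list were called lower with the GC and length correction and 2 with RLE size factors. Short RNA models such as MIR142 and MIR612 overlap the exons of MIR142HG and NEAT1, and reads shared by overlapping genes cannot be placed because the sources used here do not give the strand setting of the counting.

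The mature arms that lie within MIR142HG are shown from RefSeq (GRCh38.p14, chromosome 17, minus strand), with the seed, bases 2 to 8, in capitals. Their seeds differ, so the arms would pair with different target sites. Mature microRNAs were not measured in these libraries.
hsa-miR-142-3p: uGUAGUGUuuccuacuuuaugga
hsa-miR-142-5p: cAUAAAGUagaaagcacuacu

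Smaller groups had few calls. Metallothioneins and zinc transporters had 4 of 22 tested members higher (of 23 listed) and 1 lower (median 0.10). MT1X rose from 120.3 and 104 in CT1 and CT2 to 174 and 211 CPM in U1 and U2 (0.77, adjusted p = 0.00617), and MT2A (0.58), MT1E (0.40) and the importer SLC39A4 (0.95) rose, while SLC30A5, a zinc exporter of the secretory pathway, fell from 12.02 and 8.89 in CT1 and CT2 to 3.80 and 3.59 CPM in U1 and U2 (-1.49, adjusted p = 0.0485). Metallothionein genes are similar in sequence, so their reads may be shared. At the endoplasmic reticulum SRP14 of the signal recognition particle rose (0.57, adjusted p = 0.0068), and the channel subunits SEC61A1 (-0.53, adjusted p = 0.0315) and SEC62 (-0.84, adjusted p = 0.035) fell, out of 24 genes. FTL, the ferritin light chain, rose from 3843 and 3659 in CT1 and CT2 to 4843 and 4191 CPM in U1 and U2 (0.26, adjusted p = 0.0248), alone among 21 polyamine and iron genes. That count is near the share of genes at 10 CPM or more called higher (242 of 7526). CD4 rose (0.81, adjusted p = 0.0111), alone among 8 tested lymphoid markers of 23 listed. Of these smaller groups, the GC and length correction called CD4, and RLE size factors called MT1X and SRP14. No gene was called among 13 SR splicing factors, 5 tested erythroid and megakaryocyte markers or 4 tested epithelial and fibroblast markers.

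**Figure D3:**
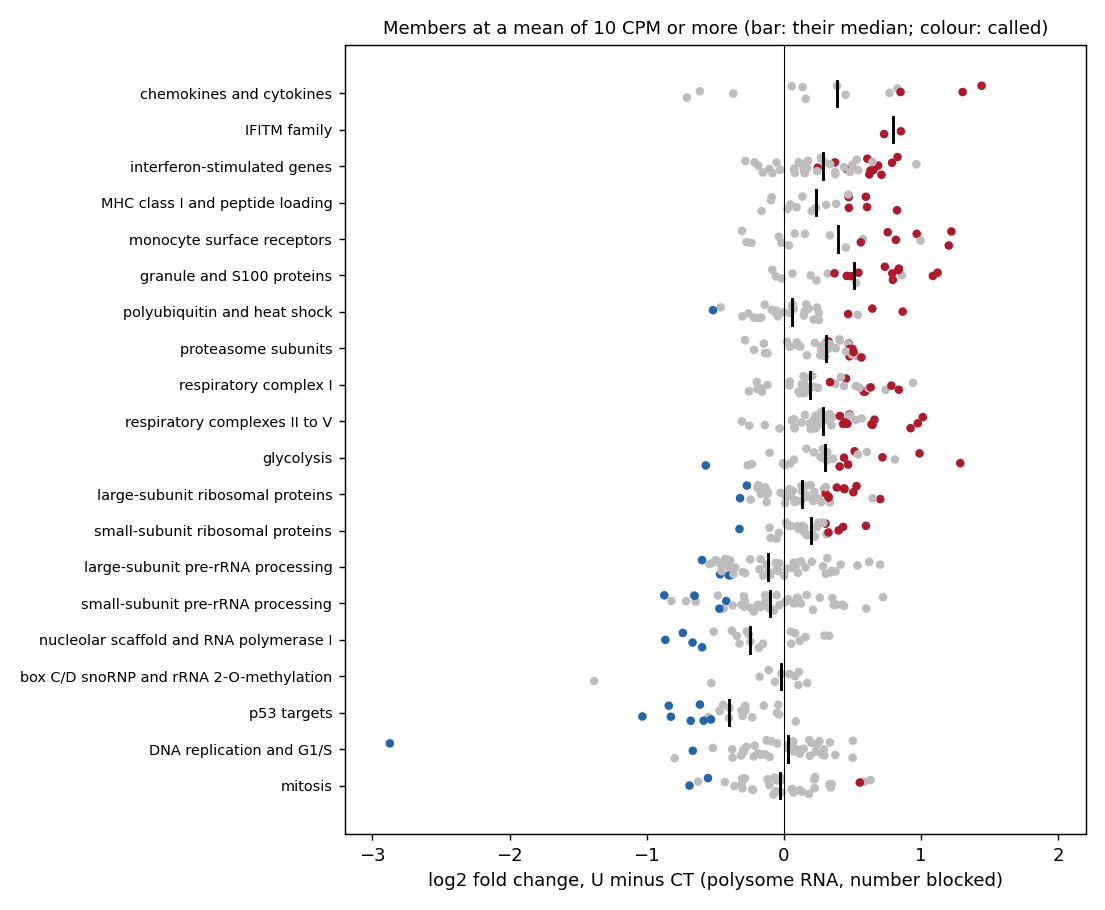
The log2 fold change of U minus CT in polysome RNA for members of 20 gene lists at a mean of 10 CPM or more; red points were called higher, blue points lower, grey points were not called, and black bars are the medians of the members drawn. Granule and S100 proteins, chemokines and respiratory subunits lie mostly to the right of 0, and p53 targets and nucleolar genes mostly to the left.

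Input RNA of the same lysates was set beside these values. Its own blocked test called 1300 of 15543 genes (8.36%), 744 higher (4.79%) and 556 lower (3.58%), with a spread taken wholly from the trend over genes, and 0 without the number as a block (1619 at an unadjusted p under 0.05). Of the genes called in polysome RNA, 171 of the 254 higher and 91 of the 253 lower were also called the same way in input RNA, and 1 was called the opposite way, SLX1B. The input log2 fold change was positive in 245 of the higher genes, with a median of 0.31, and negative in 231 of the lower genes, with a median of -0.17. CCL2 had 80.96, 94.7, 158 and 163 CPM of input RNA in CT1, CT2, U1 and U2, a log2 fold change of 0.87 against 1.44 on polysomes. IFITM2 had an input change of 0.44 and UBB one of 0.47, also smaller than on polysomes. Genes picked for their polysome change tend to show a smaller input change by that selection alone, so this order is not evidence of a polysome effect.

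Whether the polysome change differed from the input change was tested with the lysate as a block. This difference passed for 9 of 16503 genes (0.0545%), all with a lower change on polysomes, and 1408 had an unadjusted p under 0.05. For CCL2 the difference was 0.50 (SE 0.16, adjusted p = 0.272), for IFITM2 0.34 (adjusted p = 0.222) and for UBB 0.32 (adjusted p = 0.366), so none of the 3 passed. Of the 9 genes, 7 were also called lower in polysome RNA: MIR142HG, NEAT1, KCNAB2, CLSPN, SLC16A3, RPL36 and PTPA. SLC16A3 had 269.6, 248, 258 and 308 CPM of input RNA in CT1, CT2, U1 and U2, with an input log2 fold change of 0.12 against -0.57 on polysomes. RPL36 had 1787, 1671, 1894 and 1906 CPM of input RNA in that order, with 0.14 in input RNA and -0.32 on polysomes.

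**Figure D4:**
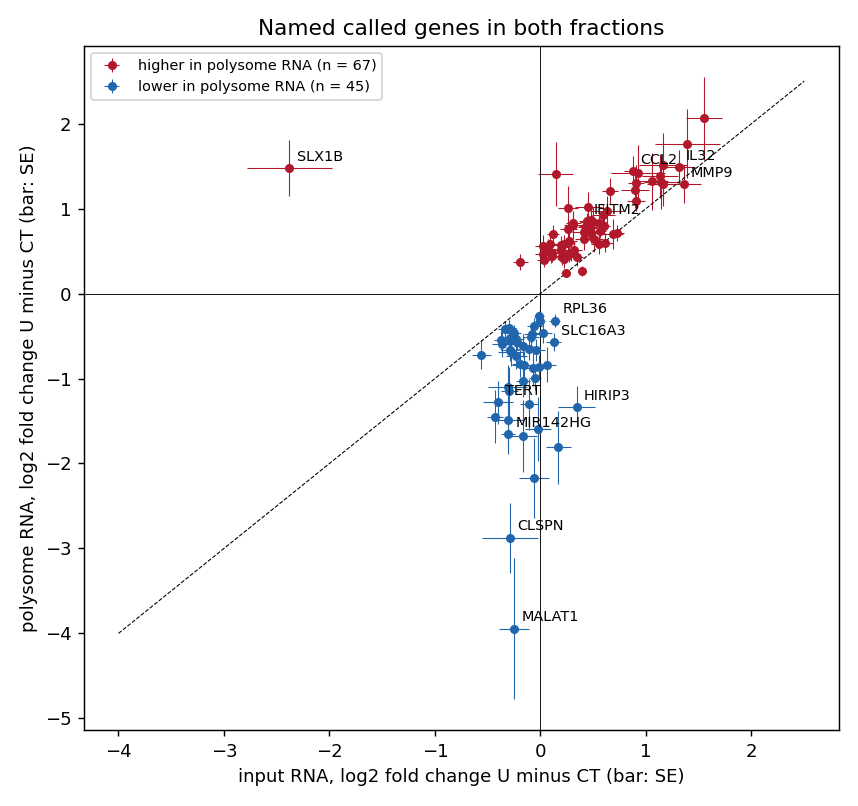
Log2 fold change of U minus CT in input RNA (x axis) and polysome RNA (y axis) for the 112 named genes called in polysome RNA; bars are standard errors and the dashed line marks equal change. Most red points lie above the line at positive input change, and the blue points lie below it, most of them with a negative input change. The genes were picked on their polysome change, which by itself favours these sides of the line.

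Length and base composition moved with the calls. Genes that rose had a median exon length of 2696 bases and a median GC content of 50.8%, genes that fell 5279 bases and 58.6%, and all genes tested 4561 bases and 49.2%. Among genes at a mean of 10 CPM or more, split into 5 bins of equal size by length, the shortest bin held 128 of the genes called higher and 43 of those called lower, and the longest 15 and 46. Of 5 such bins by GC content, the richest held 29 higher and 119 lower calls, with median log2 ratios of -0.12 for U1 over CT1 and -0.14 for U2 over CT2, against -0.02 in the input fit. After the correction for both features, CCL2 (1.25), IFITM2 (0.72) and UBB (0.67) kept their calls on the log2 scale.

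**Figure D5:**
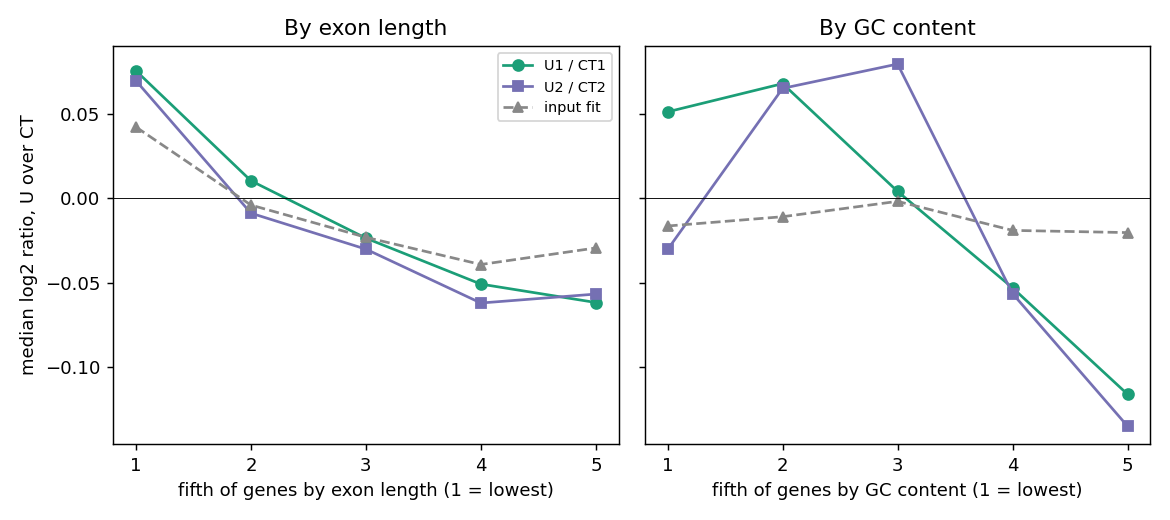
Median log2 ratio of U over CT (y axis) in 5 equal bins of the genes at a mean of 10 CPM or more, ordered by exon length (left) and by GC content (right); circles are U1 over CT1, squares U2 over CT2, and triangles the input fit. Both polysome ratios fall from the shortest bin (0.08 and 0.07) to the longest (-0.06 and -0.06) and are lowest in the bin richest in GC.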

How the data were processed

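The deposited files hold gene counts for each of the 8 libraries, which the authors made from reads trimmed with Trimmomatic 0.38, aligned to GRCh38 with Bowtie2 and counted with HTSeq 0.11.2, per the submitters' processing notes; Bowtie2 does not align across splice junctions. Reads that name no gene (13.2% to 15.0% of a library) were left out. Of 58395 gene rows, 58275 matched GENCODE v29 for coordinates, length and GC content. Polysome libraries were tested in R 4.3.3 with edgeR 4.0.16 (quasi-likelihood test, TMM, filterByExpr, title number as a block, Benjamini-Hochberg adjustment, called at 0.05). The labels do not say that a number marks a shared culture. Alternatives used DESeq2 1.42.0, limma 3.58.1, other scalings, filters and fits. The 2 libraries of a label differed by more than counting noise (chi-square per degree of freedom 46.8 in CT and 51.4 in U). Named genes were FBL, CCL2, IFITM2 and UBB, the 12 largest called coding changes each way at 10 CPM or more, and up to 3 called members of each of 44 lists each way; other members are named from the lists' calls. The comparison, its genes and the lists were chosen with earlier results of these data known. Some members counted in the lists are not reported here by name.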

Additional observations from a re-analysis of the deposited data

Results flagged for a closer look

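The change between labels differed between polysome and input RNA in 9 genes, by a test of that difference with the lysate as a block (edgeR). All 8 libraries were scaled together for it, and the shift in the median given above is from other fits scaled in this way. MIR142HG, the host of miR-142, had a difference of -1.42 on the log2 scale (SE 0.13, adjusted p = 3.02e-05): its polysome level fell while its input change was -0.31. NEAT1 had a difference of -0.93 (adjusted p = 0.00444), with 491, 710, 494.5 and 559 CPM of input RNA in CT1, CT2, U1 and U2. CLSPN had a difference of -2.69 (adjusted p = 0.0257), which rests in part on the high CT2 polysome value of 138 CPM. The lactate exporter SLC16A3 had -0.76 (adjusted p = 0.0322), KCNAB2, a potassium channel subunit, -0.59 (adjusted p = 0.0229) and PTPA, an activator of protein phosphatase 2A, -0.64 (adjusted p = 0.0459).

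A pair of large-subunit ribosomal proteins was among them. RPL37 had a difference of -0.57 (adjusted p = 0.00432): its input RNA rose (log2 fold change 0.39) while its polysome RNA was not called (-0.12). RPL36 had -0.52 (adjusted p = 0.0403). The gene ENSG00000262877 had a fitted difference of -9.10 (adjusted p = 0.0234), which is no bound, since it had 104 and 71 polysome reads in CT1 and CT2 and 0 in both U libraries, where a count of 0 allows up to 0.0779 and 0.135 CPM. Without the lysate block no gene passed this test in edgeR (1046 at an unadjusted p under 0.05), and DESeq2 with the block called 129.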

How the results depend on the processing

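The calls kept their direction and moved in number. All 507 had the same sign under every fit of both numbers that gave them a value (491 of 491 with the stricter filter). They were picked on this contrast and had the same sign within both numbers, so refits of these libraries could hardly change it. This count is therefore no support for the calls. Without the title number as a block 0 genes were called in either direction, and the same held for input RNA (0). For the difference between polysome and input change, leaving out the lysate block gave 0. With that block DESeq2 called 129, and edgeR with a number term added called 9. The deviations of same-numbered libraries from their label means correlated at 0.22 over genes at 10 CPM or more and 0.03 over all genes, and 2 pairs cannot establish pairing. RLE size factors gave 67 higher and 52 lower, the GC and length correction with the block 66 and 35, no filter beyond 1 read 401 and 455, and a mean of at least 10 CPM 439 and 398. With all 8 libraries, lower calls were 381 with the number nested in fraction and 711 with it shared, while higher calls were 170 and 342, so 30.9% and 32.5% of calls were higher against 50.1%. The whole distribution moved as well: the median log2 fold change over all genes was -0.08 and -0.07 in these fits. It was -0.01 with the 4 polysome libraries. Fits that left out 1 library gave 16 to 1594 higher and 14 to 3272 lower genes. Without the block these were 29 and 75 without CT1, 47 and 14 without CT2, 209 and 213 without U1, and 16 and 26 without U2; with 8 libraries 1594 and 3267, 1569 and 1812, 1588 and 3272, and 1562 and 1835 in that order, where the polysome change rests on 1 pair and the spread comes from input RNA. Counts moved with the prior degrees of freedom edgeR estimated: 15.97 with TMM, 8.41 with RLE and 26.3 with the stricter filter. FBL turned to -0.0088 with the GC and length correction and was not called. Of 112 named called genes, 78 were not called with that correction, 73 with RLE size factors, 26 in the nested fit of 8 libraries, 19 with limma-voom, 5 with upper quartile scaling and 4 with the shared number. DESeq2 gave an adjusted p to 101 of the 112 and did not call 6 of them. The rest had none and so were not called by it either. CCL2, IFITM2 and UBB were called in each setting with the block. Polysome U2, at 22171255 counts, limits what low genes can show; thinning all libraries to it gave 317 higher and 315 lower genes.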
